A study of Homo sapiens with 4 samples.

Results

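The UGT2B cluster on chromosome 4 holds the 7 protein-coding genes UGT2B17, UGT2B15, UGT2B10, UGT2B7, UGT2B11, UGT2B28 and UGT2B4, of 20033 protein-coding genes in the annotation used. The genes were chosen by name, as the androgen glucuronidation genes of this stretch, and each was examined with 20 kb on either side. The rule uses no measured value, but earlier results of these data were known when the genes were chosen. Chromatin accessibility across them was read from 4 ATAC-seq libraries, 2 of LNCaP cells and 2 of LNCaP-resistance cells. LNCaP is an androgen-sensitive human prostate cancer cell line, labelled as wild type, and the LNCaP-resistance cells are its enzalutamide-treated derivative. Enzalutamide is an antiandrogen drug. Both kinds of cell are labelled as grown in RPMI-1640 with fetal bovine serum. The labels do not name the resistant subline or say whether the 2 libraries of a kind came from separate cultures, so the spread between them may be technical. By the study's methods, resistant lines were derived from LNCaP by growth in charcoal-stripped serum followed by stepwise exposure to the drug, so the contrast is between a line and a long-selected descendant of it.

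UGT2B enzymes sit in the membrane of the endoplasmic reticulum and transfer glucuronic acid from UDP-glucuronic acid to hydroxyl groups of small lipophilic molecules, which makes them water-soluble and ready for export. In the prostate, UGT2B15 and UGT2B17 are the main enzymes that inactivate dihydrotestosterone and its metabolites, and androgens are known to repress them. The genes arose by repeated duplication and lie side by side with several pseudogenes of the family. Reads that match more than 1 of these near-identical copies can be placed on either, so the assignment of a summit to a single copy is uncertain to that extent.

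Each library is a list of peak summits, the single bases where a peak of transposase cutting was highest, with a score on the −log10 scale of a significance value, p or q. The score grows with sequencing depth, and the lists held 117245 and 107344 summits in LNCaP against 70866 and 45618 in the resistant cells. Scores were therefore turned into percentiles within their own library, 100 being the highest score of that library, and a gene without a summit was set to 0. A difference is given as lower or higher in the resistant cells only where both resistant libraries lay on the same side of both LNCaP libraries. With 2 libraries against 2, the smallest p an exact two-sided permutation test can give is 0.333, so no exact test could pass 0.05. No test between the cell types was run, and differences are given beside the spread of the libraries. All 7 prostate luminal marker genes examined had summits in all 4 libraries, with median percentiles of 91.2 and 91.7 in LNCaP and 87.6 and 86.5 in the resistant cells. By library, 3 of them were higher in the resistant cells, 3 were lower and 1 overlapped, where 14.7% of all protein-coding genes were higher and 40.9% lower.

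Promoter sequence was at hand in the RefSeq table of GRCh38.p14 for 4 of the 7 genes and is shown because the summits of 3 of them fell inside it. Each runs 5′ to 3′ along the gene, from 250 bases before the start site to 50 after it. Capitals mark matches, on either strand, to the 2 short motifs searched, which were TGTTTAC or TGTTTGC for FOXA factors and TATAAA for a TATA box.
UGT2B15, chr4:68670603-68670902, minus strand: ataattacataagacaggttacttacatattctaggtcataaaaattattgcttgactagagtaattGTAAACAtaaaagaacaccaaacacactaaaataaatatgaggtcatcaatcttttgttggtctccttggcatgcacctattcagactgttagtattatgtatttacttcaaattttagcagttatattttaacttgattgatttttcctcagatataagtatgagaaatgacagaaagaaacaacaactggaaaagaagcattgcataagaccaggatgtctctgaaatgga
UGT2B10, chr4:68815744-68816043, plus strand: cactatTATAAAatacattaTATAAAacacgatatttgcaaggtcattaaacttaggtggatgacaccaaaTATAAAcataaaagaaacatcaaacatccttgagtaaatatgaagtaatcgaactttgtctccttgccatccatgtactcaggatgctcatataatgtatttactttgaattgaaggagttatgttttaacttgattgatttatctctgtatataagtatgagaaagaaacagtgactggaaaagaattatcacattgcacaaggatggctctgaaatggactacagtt
UGT2B7, chr4:69096224-69096523, plus strand: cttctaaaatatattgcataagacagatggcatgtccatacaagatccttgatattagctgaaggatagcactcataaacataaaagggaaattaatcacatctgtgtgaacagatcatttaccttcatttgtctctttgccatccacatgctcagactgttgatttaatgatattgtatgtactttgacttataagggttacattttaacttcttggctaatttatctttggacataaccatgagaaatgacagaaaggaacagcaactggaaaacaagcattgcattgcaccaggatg
UGT2B11, chr4:69214699-69214998, minus strand: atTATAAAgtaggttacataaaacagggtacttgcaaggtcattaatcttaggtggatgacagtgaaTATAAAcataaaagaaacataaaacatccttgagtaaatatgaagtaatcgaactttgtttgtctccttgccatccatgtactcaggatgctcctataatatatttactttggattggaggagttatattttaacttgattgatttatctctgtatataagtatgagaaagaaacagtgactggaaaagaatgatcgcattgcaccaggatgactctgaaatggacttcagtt

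All 4 promoters were AT-rich, with a GC content of 30.3% in UGT2B15, 31% in UGT2B10, 35% in UGT2B7 and 33% in UGT2B11, against a median of 58.7% over the 35116 promoters of this length in the table. UGT2B10 and UGT2B11 were the closest pair, with 90.1% identity, and the other pairs ran from 63.1% to 70.6%. UGT2B15 alone among the 4 held the FOXA letters, at bases 68 to 74 on the opposite strand. Matches to them were found in 7.17% of all promoters. TATAAA, found in 11.5% of all promoters, occurred at 3 places in UGT2B10 and 2 in UGT2B11. The UGT2B7 window held neither motif. These matches describe letters in the window and show no binding.

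Fewer summits were called in the 7 gene windows in the resistant cells, whose lists were shorter. The 7 gene windows held 15 and 11 summits in LNCaP and 9 and 6 in the resistant cells, so the groups did not overlap. The means were 13 ± 2.83 and 7.5 ± 2.12 (SD, n = 2), a difference of −5.5. Per 10000 summits of the library the windows held 1.28 (95% exact Clopper-Pearson interval 0.716 to 2.11) and 1.02 (0.512 to 1.83) in LNCaP, and 1.27 (0.581 to 2.41) and 1.32 (0.483 to 2.86) in the resistant cells. These intervals cover counting error only. On this scale the groups overlapped, and the difference of 0.141 was close to the pooled SD of 0.129. Among the 45618 highest-scoring summits of each library, the windows held 4 and 4 in LNCaP and 6 and 6 in the resistant cells, which turned the direction of the difference.

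**Figure D1:**
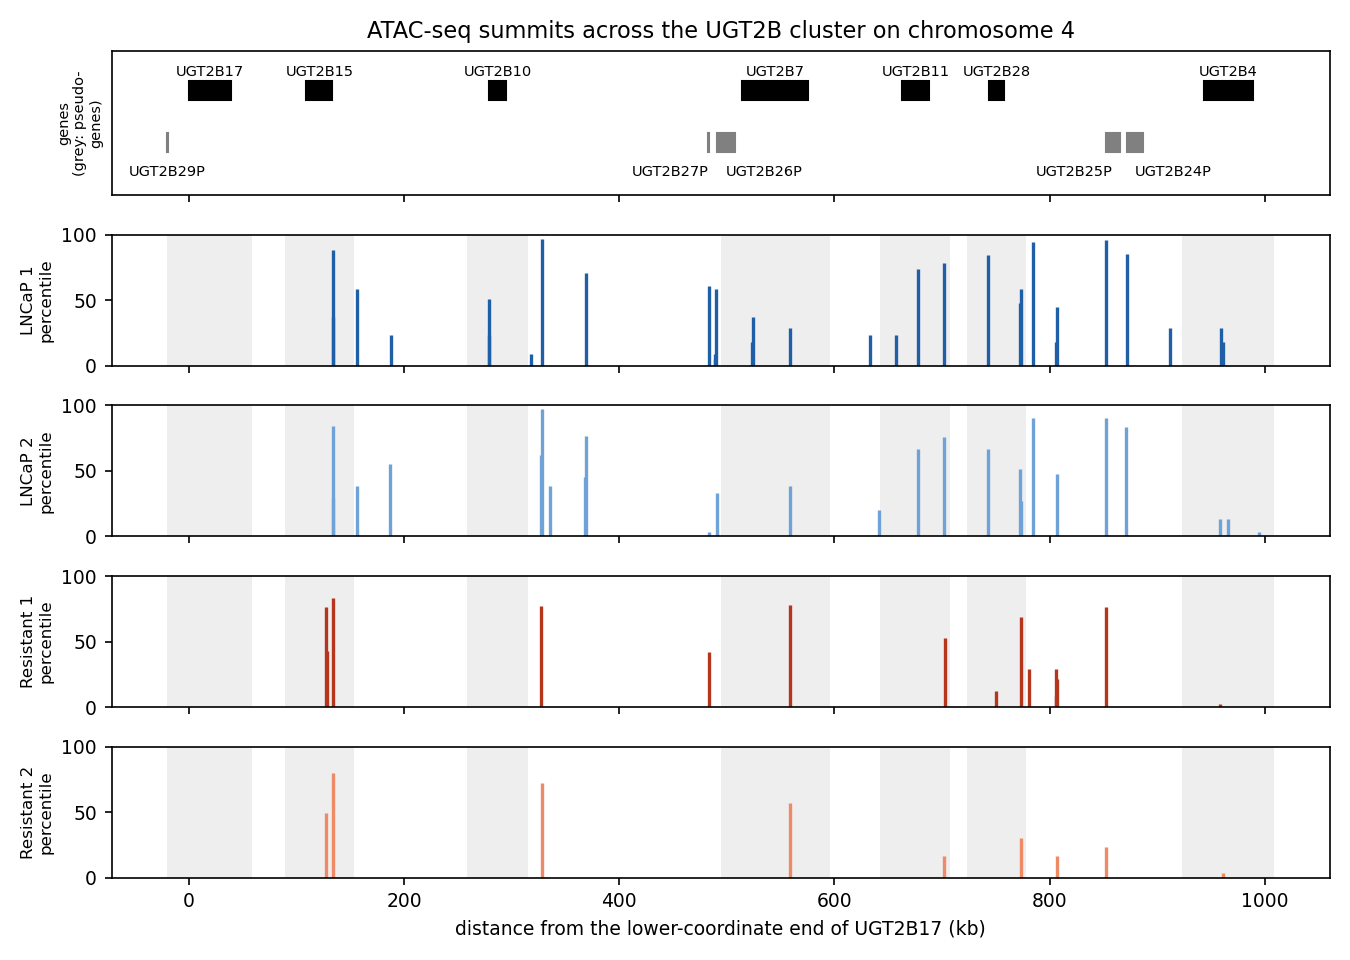
Map of the cluster and of every ATAC-seq summit in it, with 1 panel per library. The x axis is the distance in kb from the lower-coordinate end of UGT2B17 and the height of each bar is the within-library percentile of the summit score; grey bands are the 7 gene windows, black boxes the genes and grey boxes the pseudogenes. The windows hold 15 and 11 summits in the LNCaP panels and 9 and 6 in the resistant panels, and the UGT2B17 window is empty in all 4.

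The 7 genes did not move together. Taking the strongest summit of each window, 3 of the 7 genes were lower in both resistant libraries (42.9%), namely UGT2B15, UGT2B11 and UGT2B4, against 40.9% of all protein-coding gene windows. UGT2B7 alone was higher, 1 of 7 or 14.3%, against 14.7% of all windows. Both shares were close to the background. The median difference over the 7 genes was −18.1 percentile points, against −1.88 over all 20033 windows. With equal numbers of summits these medians were 0.365 and 2.83, so the size of the gap depended on how list length was handled. UGT2B17 and UGT2B10 then had no summit in any library and counted as 0. UGT2B28 and UGT2B4 had fewer summits in both resistant libraries, 2 of 7 or 28.6%, against 49.8% of all windows, and none had more, against 2.33%. UGT2B17 had no summit in any library, as had 4.58% of all windows.

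**Figure D2:**
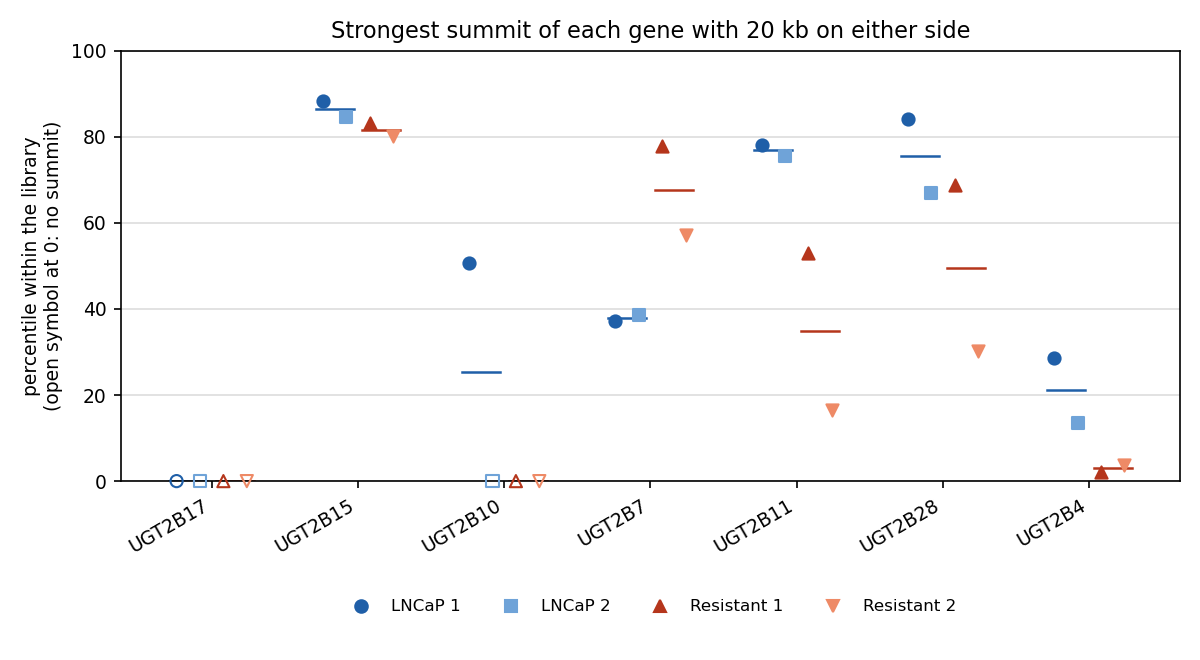
Percentile of the strongest summit in each gene window. Each point is 1 library, bars are the means of the 2 libraries of a cell type, and open symbols at 0 are libraries without a summit. UGT2B7 is higher in both resistant libraries (77.9 and 57.3 against 37.3 and 38.5), UGT2B15, UGT2B11 and UGT2B4 are lower, and the libraries of UGT2B28 and UGT2B10 overlap between the cell types.

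The dihydrotestosterone-conjugating gene UGT2B15 (gene ID 7366, chr4:68646597-68670652, minus strand) had an accessible promoter in every library. The shared region chr4:68670578-68671131 had percentiles of 88.4 and 84.5 in LNCaP and 83.2 and 80.1 in the resistant cells. Its summits lay 178 and 229 bp upstream of the start site in LNCaP and 176 and 186 bp in the resistant cells. In the printed sequence, these are bases 73 and 22 for LNCaP and bases 75 and 65 for the resistant cells, so that 3 of the 4 fell inside the FOXA letters or within 3 bases of them. This was the strongest UGT2B15 summit, with means of 86.4 ± 2.75 and 81.6 ± 2.17 (SD, n = 2) and a difference of −4.81. Although the groups did not overlap, the gap between the nearest libraries was smaller than the spread within either. With equal numbers of summits the order turned, to 70.1 and 63.5 in LNCaP and 73.8 and 80.1 in the resistant cells. The direction at this promoter therefore depended on how list length was handled.

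Away from its start site, UGT2B15 held the single region of the 7 windows that was present in both resistant libraries and in neither LNCaP library. It lay inside the gene at chr4:68664644-68665243, with summits 5758 and 5659 bp downstream of the start site. Its percentiles were 76.0 and 49.4, and its scores 39.3 and 10.6. It was also found in the resistant cells alone with equal numbers of summits, at 62.8 and 49.4. Under that setting 14.9% of all regions were resistant-specific. With all summits, 5230 regions had a mean percentile within 5 points of this region and were also present in both resistant libraries. Of these, 13.5% were resistant-specific, close to the 14.1% of all 41258 regions in both resistant libraries. A further summit 4808 bp downstream of the start site was found in resistant library 1 only, at 43.1. On the other side of the promoter, chr4:68671139-68671642 was LNCaP-specific, with summits 740 and 737 bp upstream at percentiles of 37.4 and 29.3. Such weak regions were often LNCaP-specific: 68.8% of the 9260 regions of similar rank in both LNCaP libraries were. The annotation used gives no exons, so whether a summit inside a gene was exonic or intronic is not known here.

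UGT2B17 (gene ID 7367, chr4:68537173-68576322), the closest relative of UGT2B15 in androgen conjugation, showed no summit within 20 kb in any library. Its window of 79.15 kb was the only empty one of the 7. Depth is unknown from summit lists, so a weak site cannot be distinguished from none. Reads that match a related copy can also be placed on that copy, and the part this plays in the empty window was not tested.

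UGT2B10 (gene ID 7365, chr4:68815994-68832023, plus strand), known mainly for N-glucuronidation of nicotine and other amines, had summits in LNCaP library 1 alone. One lay 207 bp upstream of the start site at a percentile of 23.6, base 44 of the printed sequence, and the other 532 bp downstream at 50.7. LNCaP library 2 and both resistant libraries had none, so the cell types overlapped.

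UGT2B7 (gene ID 7364, chr4:69051375-69112987, plus strand), an enzyme of broad substrate range that also conjugates morphine and steroid hormones, was the 1 gene higher in both resistant libraries. The region chr4:69095225-69095784 had percentiles of 28.6 and 38.5 in LNCaP and 77.9 and 57.3 in the resistant cells. The raw scores, 6.60 and 7.52 against 42.2 and 13.6, ordered the libraries in the same way. Raw scores are not comparable between lists, whose median scores were 11.6 and 10.3 in LNCaP and 15.9 and 10.9 in the resistant cells. The means were 33.5 ± 7.01 and 67.6 ± 14.6 (SD, n = 2), a difference of 34.1 points with a pooled SD of 11.5. The summits lay 960 and 984 bp upstream of the start site in LNCaP and 999 and 940 bp upstream in the resistant cells, inside the annotated gene but outside the printed promoter. When each library gave the same number of summits, the region was found in the resistant cells alone, at 65.7 and 57.3, where 14.9% of all regions were resistant-specific. With all summits, 17.7% of the shared regions of the genome were higher in both resistant libraries. Taken over the whole window, LNCaP library 1 had its strongest UGT2B7 summit elsewhere, 35353 bp upstream at 37.3, and the window difference was 29.7 points. Leaving out resistant library 1 brought it to 19.4 and leaving out resistant library 2 to 40.0.

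UGT2B11 (gene ID 10720, chr4:69199951-69224984, minus strand), whose substrates include lipid acids, had the largest difference of the 7 genes with all summits and 20 kb flanks. In lists of equal length, UGT2B7 had the largest, at 61.5 against −21.5. Its strongest summit had percentiles of 78.2 and 75.6 in LNCaP and 53.0 and 16.5 in the resistant cells, with means of 76.9 ± 1.82 and 34.8 ± 25.8 (SD, n = 2) and a difference of −42.1. The resistant libraries differed strongly from each other, and the difference was −60.3 without resistant library 1 and −23.9 without resistant library 2. At equal list length, the direction held, at 43.9 and 42.6 against 27.0 and 16.5.

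The UGT2B11 difference concerned 2 sites. The start-site region chr4:69214603-69215179 had percentiles of 73.9 and 66.9 in LNCaP, only 0.0381 in resistant library 1 and no summit in resistant library 2. Its LNCaP summits lay 157 and 181 bp upstream of the start site, bases 94 and 70 of the printed sequence, the latter inside the second TATAAA match. The scores were 22.4 and 15.5 in LNCaP and 1.40 in resistant library 1, the last barely above the lowest score of that list, 1.34. The difference was −70.4 points, with an absent summit set to 0, and the pooled SD 3.52. Restricted to equal numbers of summits, the region was LNCaP-specific, at 33.0 and 22.1, where 17.1% of all regions were LNCaP-specific. A long noncoding RNA gene, LOC105377267, overlaps the same position. The second site, chr4:69239033-69239536, lay 14302 bp above the higher-coordinate end of the gene in both LNCaP libraries, with percentiles of 78.2 and 75.6. Resistant library 2 had a summit there at 16.5 and resistant library 1 had its nearest summit further out, 14912 bp above the end, at 53.0, which counted as a separate region.

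UGT2B28 (gene ID 54490, chr4:69280475-69295050), expressed in prostate and active on androgens, had its end site in LNCaP alone and a distal site in all 4 libraries. The region chr4:69280017-69280606 was LNCaP-specific, with percentiles of 84.1 and 66.9 and scores of 31.1 and 15.5, and its summits lay 208 and 119 bp below the lower-coordinate end of the gene. Neither resistant library had a summit there. Of 10777 regions of similar rank in both LNCaP libraries, 36.4% were LNCaP-specific, against 48.3% of all 86031 regions in both LNCaP libraries. The region was also LNCaP-specific with equal numbers of summits, at 59.1 and 22.1, where 17.1% of all regions were LNCaP-specific. Between 14823 and 15417 bp above the gene, the shared region chr4:69309623-69310717 had percentiles of 58.6 and 51.7 in LNCaP and 68.9 and 30.3 in the resistant cells. The libraries overlapped there, with a difference of −5.55 and a pooled SD of 19.6. Over the whole window the strongest summits were 84.1 and 66.9 against 68.9 and 30.3, which overlapped. Taken within replicate numbers, both pairs were lower in the resistant cells, and the number of genes lower then became 4 in place of 3.

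UGT2B4 (gene ID 7363, chr4:69480165-69526014), a liver enzyme of bile acid conjugation, had only weak summits. Its strongest had percentiles of 28.6 and 13.6 in LNCaP and 2.01 and 3.86 in the resistant cells. The difference was −18.1. The resistant summits had scores of 2.67 and 2.22, near the lowest scores of their lists, 1.34 and 1.31. The LNCaP summits had scores of 6.60 and 4.14. When each library gave the same number of summits, only resistant library 2 had one, at 3.86, and the difference became 1.93.

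Over all 7 windows the summits merged into 19 regions. Of these, 2 were LNCaP-specific (10.5%), 1 was resistant-specific (5.26%) and 3 were shared by all libraries (15.8%), against 27.5%, 3.84% and 21.1% of the 151102 regions of the genome. The remaining 13 were found in other combinations of libraries. Of the 3 shared regions, UGT2B15 was lower in both resistant libraries and UGT2B7 higher, while UGT2B28 overlapped. Genome-wide, 41.8% of shared regions were lower.

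**Figure D3:**
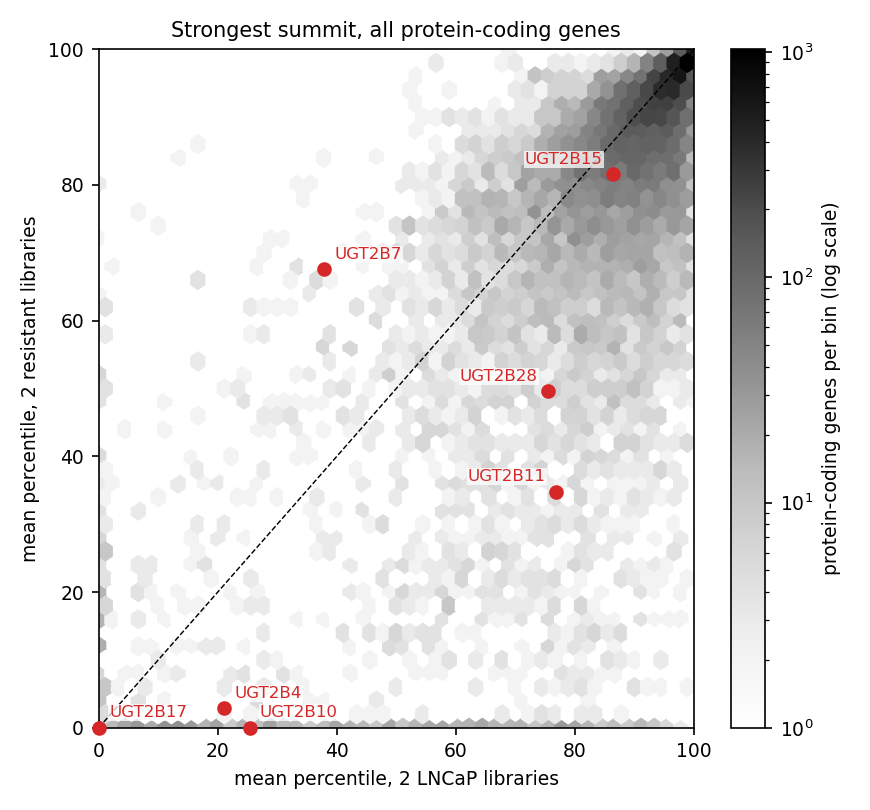
Mean percentile of the strongest summit in the 2 LNCaP libraries (x axis) and in the 2 resistant libraries (y axis) for all 20033 protein-coding gene windows, shaded by the number of genes per bin on a log scale, with the 7 UGT2B genes in red and the line of equality dashed. UGT2B7 lies above the line, at 37.9 and 67.6, in a thinly filled part of the plot, and UGT2B11 lies below it at 76.9 and 34.8.

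The sites right at UGT2B gene ends were then gathered for the whole family, pseudogenes included. This grouping was chosen after the values were seen. A site counted when a summit lay within 250 bp outside an annotated end or upstream of a start site. Start sites were at hand for 4 of the 7 genes, so UGT2B17, UGT2B28 and UGT2B4 could count only by their ends. A site at a start inside these genes would be missed, and the counts below carry that limit. Of 12 copies in the stretch, 7 genes and 5 pseudogenes, 8 had such a site in LNCaP library 1, 7 in LNCaP library 2, 4 in resistant library 1 and 2 in resistant library 2. UGT2B15 and the pseudogene UGT2B25P were the 2 copies with a site in all 4 libraries. UGT2B25P had percentiles of 95.7 and 90.2 in LNCaP and 76.4 and 23.8 in the resistant cells.

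Of the 7 copies with a site in both LNCaP libraries, 3 had none in either resistant library (42.9%), against 7.83% of the 6433 genes and pseudogenes with such a site and 9.4% of the 3999 within the same range of LNCaP percentiles. The 3 were UGT2B28, the pseudogene UGT2B26P at 58.6 and 33.1, and the pseudogene UGT2B24P at 85.2 and 83.6. Another 2 copies, UGT2B11 and the pseudogene UGT2B27P, had a site in resistant library 1 only among the resistant lists. UGT2B27P had percentiles of 60.9 and 3.23 in LNCaP and 41.9 in that library. Without resistant library 1 the count of 3 became 5. In lists of equal length, the count was again 3, with UGT2B11 in the place of UGT2B26P, and 5 copies in place of 7 had a site in both LNCaP libraries (60%, against 4.75% of 5365 genes and pseudogenes). Sites of UGT2B copies were weaker than those of most genes, with a median LNCaP percentile of 75.5 against 88.0, and 7 related copies are not independent of one another. Of all regions in both LNCaP libraries, wherever they lay, 48.3% were LNCaP-specific. Among regions of similar rank the share was 36.4% for UGT2B28, 60.9% for UGT2B26P and 27.9% for UGT2B24P. With all summits, the 42.9% was therefore high beside gene ends but not beside regions of any kind. For the 60% at equal list length, the share among regions in both LNCaP libraries was not computed. Of all regions, 17.1% were then LNCaP-specific and 26.8% shared, so the comparison with all summits does not carry over to that setting.

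**Figure D4:**
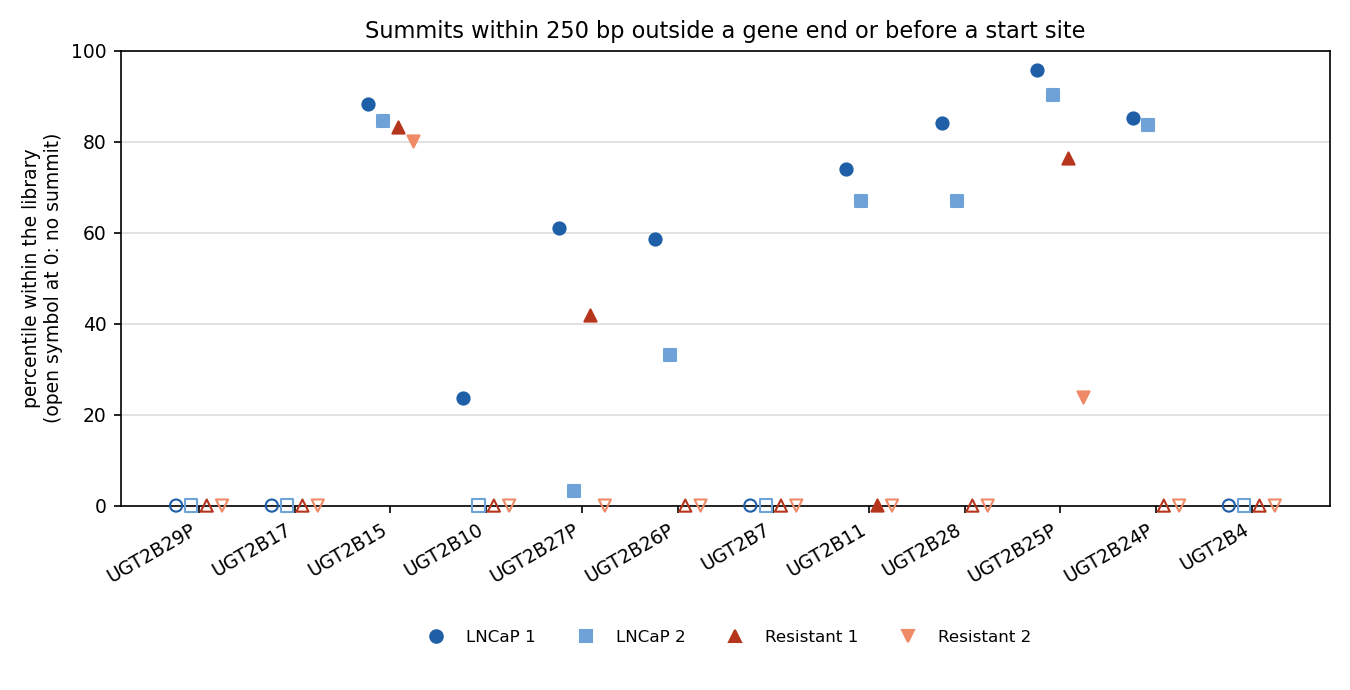
Percentile of the summit within 250 bp outside a gene end or upstream of a start site where one was at hand, for the 12 UGT2B copies in chromosome order. Each point is 1 library, and open symbols at 0 mark libraries without a summit. Sites at UGT2B28, UGT2B26P and UGT2B24P are present in both LNCaP libraries and absent from both resistant libraries, while UGT2B15 is between 80.1 and 88.4 in all 4.

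Several of the strongest summits of the stretch lay between the gene windows. The region chr4:69321250-69321750, 26450 bp above UGT2B28, was LNCaP-specific at 94.5 and 90.0. Of the 10705 regions of similar rank in both LNCaP libraries 19.5% were LNCaP-specific. With equal numbers of summits this region was LNCaP-specific as well, at 85.7 and 76.5, where 17.1% of all regions were. Between 33311 and 33401 bp above UGT2B10, the region chr4:68865084-68865674 had percentiles of 96.8 and 97.5 in LNCaP and 72.7 in resistant library 2. Resistant library 1 had its nearest summit in the adjoining region, at 77.5. The region chr4:68905866-68906377 was LNCaP-specific at 70.7 and 76.4, as were 37.8% of regions of similar rank. Both of the last sites lie within the pseudogene annotation LOC101930041. Upstream of UGT2B15, 2 further regions were LNCaP-specific, with the LNCaP library 1 summits 23036 and 54060 bp from the start site. They had percentiles of 58.6 and 38.5, and of 23.6 and 55.3. At similar rank, 59.4% and 65.0% of regions were LNCaP-specific. Of the 38 regions of the stretch, 8 were LNCaP-specific, 1 was resistant-specific and 5 were shared, against 27.5%, 3.84% and 21.1% of all regions. Over the whole stretch from chr4:68517173 to chr4:69546014 there were 31 and 25 summits in LNCaP and 16 and 9 in the resistant cells, or 2.64 and 2.33 against 2.26 and 1.97 per 10000. The groups did not overlap on either scale. On the share scale the nearest libraries, at 2.33 and 2.26, lay closer than the SDs within the groups, 0.223 and 0.201. By count, 49.8% of all protein-coding gene windows also had fewer summits in both resistant libraries. No such share was computed for stretches of this length. At equal list length, the stretch held 9 and 10 summits in LNCaP and 9 and 9 in the resistant cells.

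Other genes of the pathway were examined in the same way, from lists chosen with earlier results of these data known. Their counts are to be read against the 40.9% of all windows that were lower and the 14.7% that were higher, and, with equal numbers of summits, against 18.1% and 42.6%. Among the 15 other UGT enzymes, 11 were lower in both resistant libraries, 4 overlapped and none was higher, with a median difference of −40.5. Restricted to equal numbers of summits, 3 were lower, 1 was higher and 11 overlapped, with a median of −1.24. The 9 UGT1A genes, which conjugate bilirubin, oestrogens and drugs, made up most of these and share one chromosome 2 locus and its summits, so they amount to a single observation. UGT1A8 had percentiles of 92.8 and 83.6 in LNCaP, and 36.1 and no summit in the resistant cells. UGT3A1 had 99.9 and 99.8 against 79.6 and 57.4, and UGT3A2 96.8 and 96.6 against 80.9 and 30.3. UGT8, the ceramide galactosyltransferase, overlapped, with 76.2 and 85.6 against 87.1 and 76.9. UGT2A3, the UGT2A gene within the stretch, had no summit.

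Of the 3 genes that supply the sugar donor, 1 was lower and 2 overlapped. UGDH, which makes UDP-glucuronic acid, had percentiles of 95.6 and 97.2 in LNCaP and 94.5 and 95.9 in the resistant cells. UGP2, which makes its precursor UDP-glucose, was lower by a small step, at 96.6 and 96.3 against 95.9 and 93.7. The transporter gene SLC35D1 overlapped, at 74.4 and 72.8 against 81.9 and 73.6. In lists of equal length, 2 of the 3 were higher, 1 overlapped and none was lower. Of the 4 genes that cleave or export conjugates, GUSB, the lysosomal β-glucuronidase, was higher at 81.4 and 75.7 against 84.7 and 88.1. The exporters ABCC3 and ABCC4 were lower, with differences of −11.8 and −17.9, and ABCC2 overlapped. At equal list length, 2 of the 4 were higher and 2 lower.

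In the competing route of steroid sulfation, SULT1E1, the oestrogen sulfotransferase, and SULT2A1, the sulfotransferase of DHEA, were lower, with differences of −40.0 and −31.6. SULT2B1 was higher by 7.04 and the sulfatase STS overlapped. In lists of equal length, 1 of these 4 genes was lower, 1 was higher and 2 overlapped. The median difference was then 2.11 in place of −23.2. Among 7 transcription factors examined for their known action on UGT genes, 4 were lower, 1 was higher and 2 overlapped, against 40.9% of all windows lower and 14.7% higher. When each library gave the same number of summits, 4 were lower and 2 higher. FOXA1, a pioneer factor that regulates UGT2B15 and UGT2B17, had percentiles of 68.0 and 53.5 in LNCaP and 87.6 and 86.0 in the resistant cells. CDX2 and HNF4A, factors of gut and liver, differed by −24.3 and −21.0, ESR1 by −34.3 and POU2F1 by −9.26. NR1H4 and PPARA overlapped.

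Hepatocyte markers were examined because several UGT2B genes are liver enzymes. ALB had no summit in any library. TTR had percentiles of 92.1 and 85.1 in LNCaP and no summit in the resistant lists, SERPINA1 98.1 and 92.1 against 18.4 and none, and APOA1 89.1 and 89.8 against 83.5 and 69.5. The medians of the 4 genes were 90.6 and 87.4 in LNCaP and 9.18 and 0 in the resistant cells. Of the 4, 3 were lower and 1 overlapped, against 40.9% of all windows lower. With equal numbers of summits, 2 were lower and 2 overlapped, against 18.1% of all windows lower. The median difference was then −37.1, against 2.83 over all windows. Of the 5 neuroendocrine markers, 3 were lower and 2 overlapped, against 40.9% of all windows lower, with medians of 96.9 and 92.7 in LNCaP and 82.6 and 63.1 in the resistant cells. In lists of equal length, 2 were lower, 1 was higher and 2 overlapped. The part these marker differences play in the UGT2B values was not tested.

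The protein-coding genes whose 4 percentiles lay closest to those of UGT2B11 were FAM171A1, CRHR2, SKOR2, CLCA2 and RAB6C, at Euclidean distances of 2.58, 3.09, 4.47, 4.99 and 5.05 percentile points over 4 libraries. FAM171A1, the closest, had 79.0 and 74.0 in LNCaP and 51.1 and 16.5 in the resistant cells.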

How the data were processed

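In 4 libraries, an established cell line and its derivative were assayed by ATAC-seq with a transposase kit and 12 cycles of amplification, per the labels. The authors deposited 1 summit list per library on hg38, with a score on the −log10 scale of a p-value or a q-value. Which one it is, and whether cut positions were shifted for the transposase, is not given in the sources used here. The submitters' processing notes name Bowtie2 2.2.5, SAMtools 1.6, MACS2 2.2.6, deepTools 3.5.2, HOMER 4.11 and edgeR 3.22.5. Peaks were called per library. The lists hold no read counts, so depth is unknown. Between 0.0972% and 0.185% of summits lay outside the main chromosomes and were kept in the ranking.

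Scores were ranked within each library, ties taking the highest rank, and gene positions and promoters came from the RefSeq tables of GRCh38.p14, which give no exons. Summits were widened by 250 bp and merged over the 4 libraries into regions. A region was specific to a cell type when both of its libraries and neither of the others had a summit. Alternatives were equal numbers of summits, a score of at least 10, flanks of 5 and 50 kb, windows of 100 and 500 bp to each side of a summit, membership by 1 library, merging of summits within 500 bp, and leaving out each library. Libraries of the same replicate number carry the same batch label (repeat 1 or 2) in both cell types, and the paired comparison rests on that label alone. The deviations of same-numbered libraries had a correlation of 0.00614 over 20033 gene windows. The counting code was tested on simulated lists. The genes, lists and regions named were all 7 members, the genes of 5 pathway and 3 marker lists, every specific or shared region in the windows and the 5 genes most alike to the member with the largest difference. Sites outside the windows and family copies were named after their values were seen. Some planned list genes and motifs are not reported here. The members and lists were chosen with earlier results of these data known. Tables were handled with pandas 2.3.3 and numpy 2.4.6 under Python 3.11.15, intervals came from scipy 1.17.1, alignments from Biopython 1.88 and plots from matplotlib 3.10.9.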

Additional observations from a re-analysis of the deposited data

How the results depend on the processing

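The lists were of unequal length, and values are given as resistant minus LNCaP. With equal numbers of summits, the difference in summits in the 7 windows was 2 in place of −5.5 and the share difference 0.438 per 10000. There were then 1 gene lower and 2 higher, and UGT2B15 and UGT2B4 differed by 10.1 and 1.93 points. The windows then held 2 LNCaP-specific regions, 3 resistant-specific regions and 1 shared region. Of all regions of the genome, 17.1% were then LNCaP-specific, 14.9% resistant-specific and 26.8% shared. Under this setting 18.1% of all protein-coding windows were lower, 42.6% higher, and their median difference was 2.83. With a score of at least 10, the summit difference was −1.5, and there were 1 gene lower, 4 LNCaP-specific, 2 resistant-specific and 1 shared region. With 50 kb flanks, the summit difference was −14 and the share difference −0.294, with 6 genes lower, 0 higher and 5 LNCaP-specific regions. Widening summits by 500 bp left 1 LNCaP-specific region. Membership by 1 library gave 8 LNCaP-specific, 4 resistant-specific and 7 shared regions. Leaving out each library in turn gave a summit difference from −7.5 to −3.5, a share difference from 0.0133 to 0.268, and 3 to 5 genes lower, with 5 without LNCaP library 2. LNCaP-specific regions then ran from 3 to 7, with 7 without LNCaP library 2, 5 without LNCaP library 1 and 4 without resistant library 1. Resistant-specific regions ran from 1 to 4 and shared regions from 3 to 5, both highest without resistant library 2. Family copies with an end site in LNCaP alone ran from 3 to 5. In the comparison with the replicate block, 4 genes were lower in both pairs in place of 3, by UGT2B28, and the differences of −5.5 summits and 0.141 per 10000 were the same. The cause of these changes was not tested, except that leaving out a library or requiring 1 library loosens the criterion by construction.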
